A study of Mus musculus with 4 samples.

Results

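The genes described here are 8 ligands and receptors of the netrin and Slit guidance systems, taken by mouse symbol from the 27179 rows of the deposited gene count table: the ligands Ntn1, Ntn4, Slit2 and Slit3 and the receptors Unc5b, Robo1, Robo2 and Robo4. All 8 had a row, and 5 of them (Ntn1, Ntn4, Slit2, Unc5b and Robo4) held enough reads to be tested. They were measured by RNA sequencing in mAEC, a line of murine aortic endothelial cells cultured as a model of the lining of large arteries. The control group (2 libraries) stood in normal medium, and the conditioned medium group (2 libraries) received supernatant of macrophages positive for both TNFα, an inflammatory cytokine, and CD68, a macrophage marker. The comparison was with normal medium and not with the supernatant of other cells, and both groups come from a single line. The labels give no dose or duration of the treatment.

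Netrins are secreted proteins related to laminins, and Slits are large secreted proteins with leucine-rich repeats; both were first studied as cues that steer growing axons. Netrin-1 repels or attracts depending on the receptor, with UNC5 receptors carrying repulsion, and Slits act through Roundabout (Robo) receptors. In blood vessels UNC5B and ROBO4 are the receptors best known from endothelium, where they restrain sprouting and help to keep the barrier closed, and ROBO4 can itself bind UNC5B. Netrin-4 is also a component of basement membranes.

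In conditioned medium the ligand genes Ntn1 and Slit2 rose 1.49-fold and 1.18-fold, and the receptor gene Unc5b rose 1.33-fold. Robo4, which had the highest level per transcript length of the 8, fell 1.27-fold. Ntn4 was 1.14-fold lower and lay just outside the threshold (edgeR adjusted p = 0.05003). Slit3, Robo1 and Robo2 were at or near the limit of detection. The genes with a called change therefore moved in both directions, and the tested receptors moved in opposite ones.

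The windows around the transcription starts of 4 of the tested members are shown because the receptor that fell and the receptor that rose have starts of unlike base composition. Each runs 5′ to 3′ from 250 bases before to 50 after a start listed by RefSeq in GRCm38.p6. Capitals mark the ETS core GGAA and the GC box GGGCGG on either strand; matches to the 2 motifs do not overlap each other.
Unc5b, chr10:60831532-60831831, minus strand: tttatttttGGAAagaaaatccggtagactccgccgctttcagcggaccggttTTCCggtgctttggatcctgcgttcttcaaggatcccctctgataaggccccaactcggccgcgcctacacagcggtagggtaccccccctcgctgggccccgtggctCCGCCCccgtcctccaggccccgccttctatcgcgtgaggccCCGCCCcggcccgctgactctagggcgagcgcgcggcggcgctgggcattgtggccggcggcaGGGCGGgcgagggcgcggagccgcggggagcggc
Robo4, chr9:37401722-37402021, plus strand: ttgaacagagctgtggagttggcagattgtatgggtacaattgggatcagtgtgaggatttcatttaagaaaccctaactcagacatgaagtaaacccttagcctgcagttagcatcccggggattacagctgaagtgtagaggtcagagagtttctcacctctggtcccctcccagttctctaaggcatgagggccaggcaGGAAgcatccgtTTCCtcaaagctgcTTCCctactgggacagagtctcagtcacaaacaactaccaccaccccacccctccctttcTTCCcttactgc
Slit2, chr5:47982905-47983204, plus strand: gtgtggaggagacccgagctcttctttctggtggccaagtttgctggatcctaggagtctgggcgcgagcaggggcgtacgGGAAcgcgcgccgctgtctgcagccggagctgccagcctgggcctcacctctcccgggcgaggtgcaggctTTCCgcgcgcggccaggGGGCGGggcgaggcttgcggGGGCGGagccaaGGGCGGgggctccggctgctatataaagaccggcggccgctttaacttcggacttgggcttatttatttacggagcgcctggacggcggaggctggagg
Ntn4, chr10:93640799-93641098, plus strand: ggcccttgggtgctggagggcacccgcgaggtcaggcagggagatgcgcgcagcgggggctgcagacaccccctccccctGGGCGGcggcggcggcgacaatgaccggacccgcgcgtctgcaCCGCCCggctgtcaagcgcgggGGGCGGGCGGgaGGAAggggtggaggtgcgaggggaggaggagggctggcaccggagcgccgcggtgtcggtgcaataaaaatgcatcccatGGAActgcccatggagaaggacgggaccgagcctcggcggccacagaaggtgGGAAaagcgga
The Unc5b window was 69.7% G and C with 36 CpG dinucleotides, whereas the Robo4 window was 50.3% G and C with 2. Slit2 stood at 68.0% with 30 CpG and Ntn4 at 72.0% with 31, so these ligand starts resembled that of Unc5b in base composition. Of these 2 ligands Slit2 was called higher, and Ntn4 was lower and not called. Any relation of base composition to the changes was not tested. The Slit2 window lies inside the gene interval, which begins at 47981291, and not at its outer edge. Over the 32851 RefSeq start windows of the same length the medians were 52.7% and 7 CpG. Unc5b had more CpG than 93.8% of the windows, and Robo4 more than 14.1%. The GC box was matched 3 times at Unc5b, 3 at Slit2 and 4 at Ntn4, where 2 matches overlap, and 0 times at Robo4; 35.7% of all windows hold it. The ETS core was matched 4 times at Robo4, 3 at Ntn4 and 2 at each of Unc5b and Slit2, against a median of 3, and 96.0% of all windows hold it. The NF-kB consensus and the AP-1 motif TGANTCA, searched on both strands, were matched 0 times in these 4 windows; 8.46% and 7.81% of all windows hold them. The hypoxia response core GCGTG was matched 1 time at Unc5b and is held by 32.4% of all windows. The TATA box TATAAA was matched 1 time at Slit2 and is held by 13.6% of all windows. Of the other members, Slit3, Robo1 and Robo2 also have windows. A match describes letters in a window and not a bound site.

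The deposited counts summed to between 13815695 and 18005840 per library. Values are given as CPM, counts relative to library size after scaling by the trimmed mean of M-values (TMM), on which 3 counts correspond to 0.166 to 0.216 CPM. The cells carried the defining endothelial markers Pecam1 (2414 ± 41.5 CPM in control, mean ± SD, n = 2), Cdh5 (1908 ± 20.8 CPM) and Kdr (440 ± 3.51 CPM). Cldn5, a tight junction gene of endothelium, held 1 count in all libraries together. Vwf, on the same endothelial list, was low, at 2.90 ± 0.840 CPM in control and 2.88 ± 0.707 CPM in conditioned medium. Of the 10 macrophage markers, Adgre1, C1qa, C1qb and Tyrobp were listed at 0 in every library and Ptprc held 1 count. Since the annotation behind the counts is not known, a 0 may also be a gene that was not counted. Lyz2, the lysozyme gene, stood at 4.46 ± 0.177 CPM in control and 4.46 ± 0.282 CPM in conditioned medium and was not called. Cd68 stood at 234 ± 20.0 CPM in control and 245 ± 5.76 CPM in conditioned medium and was not called (edgeR adjusted p = 0.429). The 7 smooth muscle and pericyte genes summed to 10.5 and 10.9 CPM in control and 11.1 and 12.1 CPM in treated libraries. Most of this was Pdgfrb, a pericyte receptor, at 6.61 ± 0.626 and 6.89 ± 0.362 CPM, followed by Des at 2.04 ± 0.111 and 2.30 ± 0.116 CPM and Tagln at 1.497 ± 0.182 and 1.51 ± 0.103 CPM, and none of these 3 was called. The smooth muscle genes Myh11 and Acta2 and the fibroblast genes Col1a1 and Dcn were under 1 CPM in both groups. Lyve1, a lymphatic marker, was high (2014 ± 25.8 CPM in control), whereas Prox1, the transcription factor that defines lymphatic cells, held 2 counts in all. Flt4, also on the lymphatic list, stood at 353 ± 7.12 CPM in control and 365 ± 3.46 CPM in conditioned medium and was not called (edgeR adjusted p = 0.480). Among these marker lists of other cells 2 genes rose: Pdpn, a lymphatic and epithelial surface protein, from 8.27 ± 0.854 to 13.7 ± 0.606 CPM (edgeR adjusted p = 4.29e-04), and Pdgfra, a growth factor receptor on the fibroblast list, from 26.2 ± 1.203 to 31.8 ± 0.358 CPM (edgeR adjusted p = 0.0171). The 6 fibroblast genes summed to 27.7 and 29.8 CPM in control and 34.0 and 34.2 CPM in treated libraries, nearly all of it Pdgfra. Col3a1, a fibrillar collagen and the other fibroblast gene tested, went the other way, from 1.91 ± 0.0823 to 1.39 ± 0.0798 CPM, and was not called (edgeR adjusted p = 0.337), and Col1a2 and Lum were at 0. The part of such cells in the results was not tested. The two-sided quasi-likelihood test of edgeR covered 13897 genes, of which 16.8% had an adjusted p under 0.05, the threshold for a call; 8.53% were higher and 8.23% lower. The labels describe the libraries as biological replicates without naming separate cultures, so the p-values measure the spread between these samples, which may in part be technical.

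Levels can be compared between genes only per transcript length, so CPM was divided by the length in kilobases of the longest coding transcript linked to RefSeq, giving RPKM. In control the order was Robo4 at 43.7 ± 3.51 RPKM, Ntn4 at 15.4 ± 0.285, Unc5b at 8.03 ± 0.302, Slit2 at 5.13 ± 0.159 and Ntn1 at 0.742 ± 0.0306 (mean ± SD, n = 2). No library of one of these genes reached the range of its neighbour in the order. In conditioned medium Robo4 stood at 34.4 ± 0.152 RPKM, Ntn4 at 13.5 ± 1.08, Unc5b at 10.7 ± 0.159, Slit2 at 6.05 ± 0.155 and Ntn1 at 1.11 ± 0.0345. The order was thus the same in both groups, with Ntn4 and Unc5b closer together. With the shortest instead of the longest coding transcript, Robo4 came to 67.1 RPKM and Slit2 to 6.61 RPKM in control, and the order did not change. Below these 5 genes Robo1 reached at most 0.0660 RPKM in any library.

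**Figure D1:**
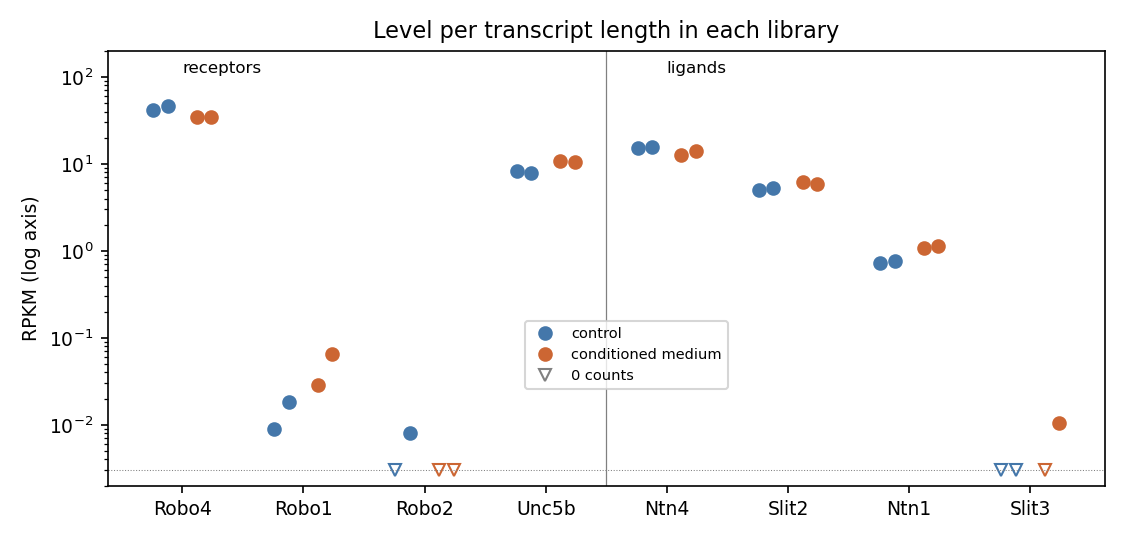
RPKM, CPM divided by transcript length in kilobases (log axis), of each of the 8 genes in each library; points are libraries, blue for control and orange for conditioned medium, and open triangles mark libraries with 0 counts. Robo4 is highest in all 4 libraries, and Robo1, Robo2 and Slit3 lie far below the other 5 genes.

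Among the ligands, Ntn1, which encodes netrin-1, held 61 and 64 counts in the control libraries and 86 and 117 in the conditioned medium libraries. Scaled to library size these were 4.13 and 4.38 CPM against 6.20 and 6.48 CPM. The groups did not overlap, and each pair lay close together. The log2 fold change was 0.58 ± 0.18 (SE; edgeR adjusted p = 0.0278), with an unadjusted 95% interval of 0.21 to 0.95. The width of that interval goes with the low counts. Ntn1 lies on the minus strand of chromosome 11, 68209364 to 68386826, in GRCm38, the assembly that mm10 represents. Its call was lost without control replicate 1 and without each of the treated libraries (log2 fold changes 0.54, 0.61 and 0.54; adjusted p = 0.0814, 0.129 and 0.222) and in DESeq2 (adjusted p = 0.277), within alternatives that reached down to 0.0198.

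Slit2, the ligand of Robo receptors with the most reads here, stood at 49.98 and 52.2 CPM in control and at 61.3 and 59.1 CPM in conditioned medium. Both treated libraries were above both controls. The log2 fold change was 0.24 ± 0.06 (edgeR adjusted p = 0.00924), with a 95% interval of 0.11 to 0.36. This change was smaller than that of most called genes: 67.2% of the 2330 called genes had a larger absolute log2 fold change, against 14.8% for Ntn1. Slit2 lies on chromosome 5, 47981291 to 48307735. Without conditioned medium replicate 1 or 2 its log2 fold change was 0.21 or 0.26 and it was not called (adjusted p = 0.149 or 0.0959), nor was it by DESeq2 (adjusted p = 0.146), the lowest of its alternatives being 0.00206.

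Ntn4, which encodes the basement membrane netrin, had 55.5 and 57.0 CPM in control. In conditioned medium it had 46.3 and 51.9 CPM. The groups did not overlap, but the treated libraries lay further from each other than the controls did. The log2 fold change was -0.19 ± 0.07, with a 95% interval of -0.33 to -0.05, and the edgeR adjusted p of 0.05003 (0.00839 unadjusted) missed the threshold. It was -0.12 without conditioned medium replicate 1 (adjusted p = 0.466) and -0.28 without replicate 2 (adjusted p = 0.0835). Without control replicate 1 it was -0.21 and called (adjusted p = 0.0276), and 7 of its 15 alternatives called it lower. Ntn4 lies on chromosome 10, 93641049 to 93745972. The ligand level per length thus remained highest for Ntn4 while the ratio of Ntn4 to Ntn1 RPKM, chosen after these values were seen, was 21.2 and 20.5 in the control libraries and 11.7 and 12.6 in the treated ones. Lower values in both treated libraries give a two-sided exact permutation p of 0.333, the smallest that 2 against 2 libraries allow. The 2 genes had already separated in opposite directions, so this outcome was fixed.

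Slit3, a ligand with the same domain plan as Slit2, held 1 count, in conditioned medium replicate 2, and 0 in the other 3 libraries. No fold change is given for it.

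**Figure D2:**
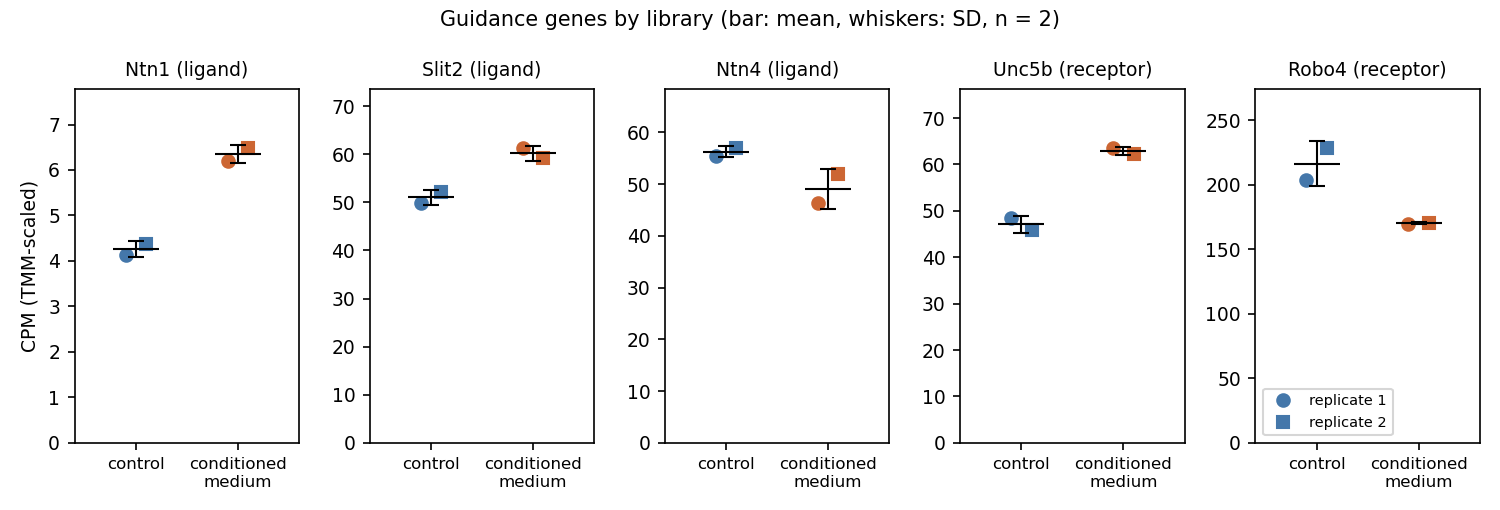
CPM (linear axis from 0) of the 5 tested genes in each library; circles are replicate 1 and squares replicate 2, the horizontal bar is the mean and the whiskers the SD of 2 libraries. Ntn1, Slit2 and Unc5b are higher and Robo4 lower in both treated libraries than in both controls, and the treated libraries of Ntn4 are spread from 46.3 to 51.9 CPM.

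Among the receptors, Unc5b, a netrin receptor of endothelium, stood at 48.4 and 45.8 CPM in control and at 63.6 and 62.2 CPM in conditioned medium. Every treated library was above every control, by more than the distance within either pair. The log2 fold change was 0.42 ± 0.06 (edgeR adjusted p = 5.91e-05), with a 95% interval of 0.29 to 0.54. Of the called genes 27.6% had a larger absolute log2 fold change. Unc5b lies on the minus strand of chromosome 10, 60762594 to 60831581.

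Robo4, the Roundabout receptor of endothelium, was at 204 and 229 CPM in control and at 170 and 171 CPM in conditioned medium. The treated libraries nearly coincided, below both controls, and the controls differed by more than the treated libraries did. The log2 fold change was -0.35 ± 0.05 (edgeR adjusted p = 7.28e-05), with a 95% interval of -0.45 to -0.24. Without control replicate 2, the higher control, it was -0.26, and without control replicate 1 it was -0.43, called in both cases. Robo4 lies on the plus strand of chromosome 9, 37401902 to 37414023. Both Unc5b and Robo4 were called in all 15 alternatives, with adjusted p up to 0.0128 and 0.0288.

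Because Robo4 is itself an endothelial gene, the other endothelial markers are given beside it. Of 12 such markers 11 were tested, of which 2 rose, 2 fell and 7 were not called, while 16.8% of all genes tested were called. The median log2 fold change of the 11 was 0.02. Their summed level was 7102 and 7113 CPM in control and 7250 and 7179 CPM in treated libraries. Pecam1 and Cdh5 held the largest parts of this sum, 2414 and 1908 CPM in control. The falls were in Kdr, the main VEGF receptor (-0.16 ± 0.04; edgeR adjusted p = 0.0123), and Emcn, an endothelial sialomucin (-0.13 ± 0.04; edgeR adjusted p = 0.0298), both smaller than that of Robo4. Eng, a TGF-beta co-receptor, rose (0.32 ± 0.05), as did Egfl7, a secreted endothelial protein (0.21 ± 0.04). Kdr and Emcn were not called by DESeq2, nor with a treated library left out (adjusted p up to 0.239 and 0.374 over their alternatives, down to 9.89e-05 and 1.60e-04). In bulk RNA fewer cells expressing a gene and less RNA per cell cannot be told apart.

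The ratio of Unc5b to Robo4 in RPKM, also chosen after the values were seen, was 0.1999 and 0.169 in the control libraries. In the treated libraries it was 0.316 and 0.308. The ratio was 1.70-fold higher in conditioned medium, with both treated libraries above both controls (two-sided exact permutation p = 0.333, the smallest possible). This separation follows from that of the 2 genes, so the p adds nothing to their own tests. Robo4 exceeded Unc5b per length in every library.

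Robo1 and Robo2, the Roundabout receptors best known from neurons, were below the count filter. Robo1 held 1 and 2 counts in control and 3 and 9 in conditioned medium. Pooled over libraries this was 3 against 12 counts, a ratio per library total of 3.70 with an exact 95% binomial interval of 0.999 to 20.4, which covers counting error only and compares these libraries, not the conditions. With no count filter edgeR did not call it (adjusted p = 0.309). Robo2 held 1 count, in control replicate 2. The Robo receptor transcripts counted among the members were thus almost all Robo4.

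Of the 5 tested members 4 were called, 3 higher and 1 lower, against 16.8% of all genes tested, and all 5 had groups without overlap in CPM, as had 57.2% of all genes tested. The median log2 fold change of the 5 was 0.24, against 0.00 over all tested genes. The members are few and were chosen with earlier results known, so these shares are a description.

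**Figure D3:**
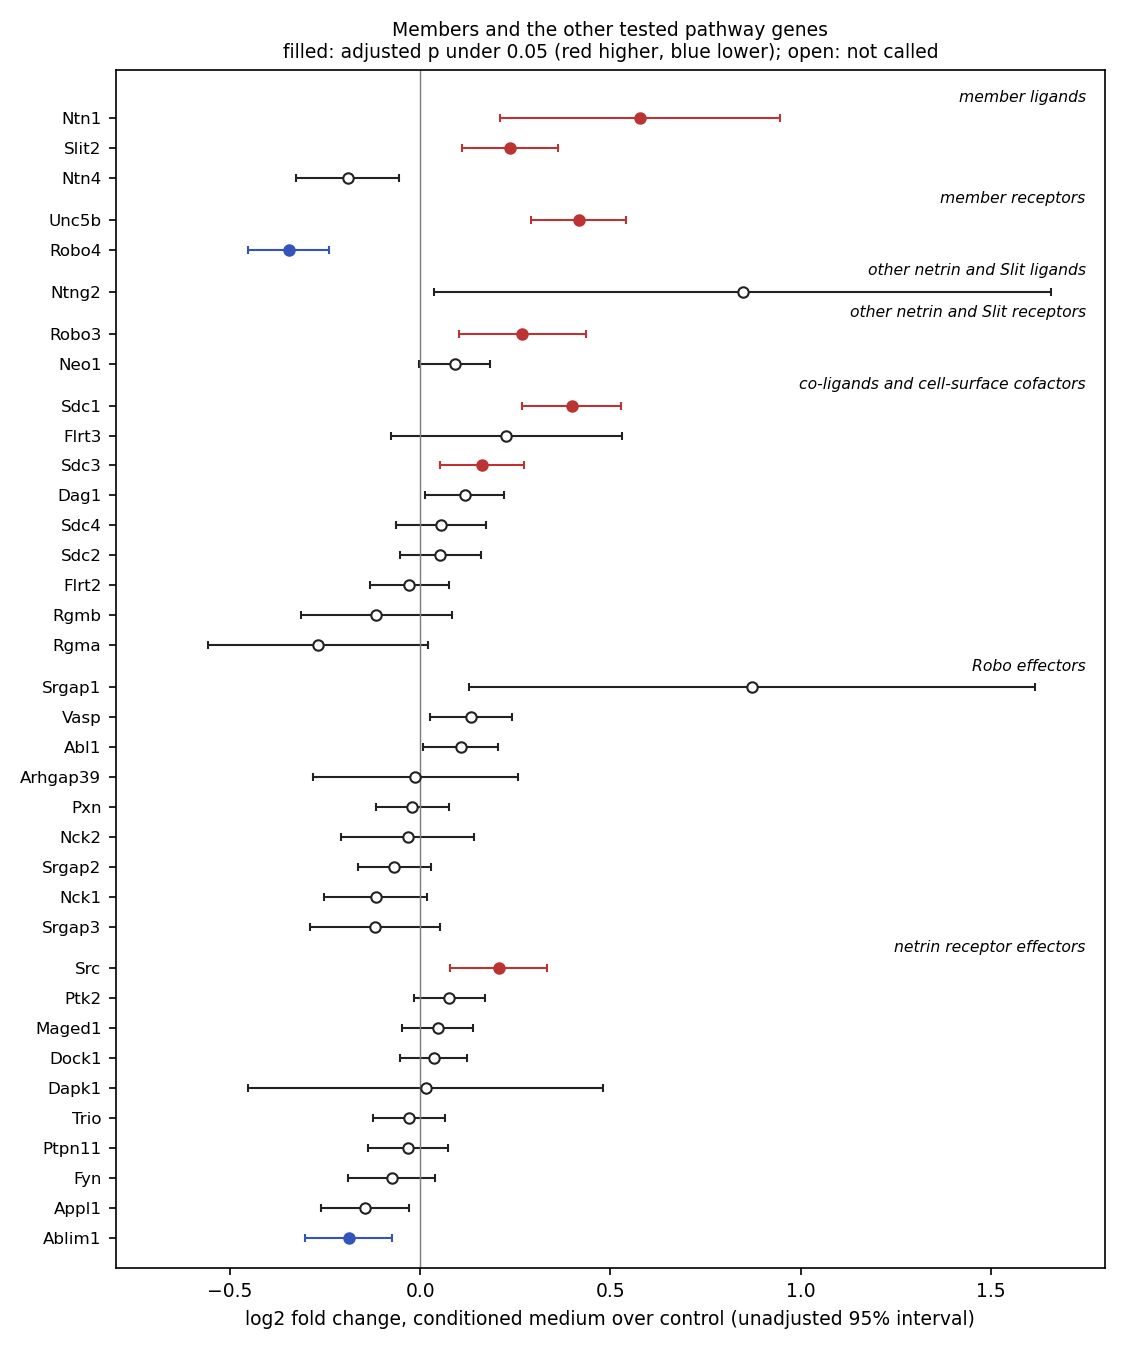
Log2 fold change of conditioned medium over control with its unadjusted 95% interval (horizontal axis) for the 5 tested members and the 31 tested genes of the other pathway lists, by list; filled points had an adjusted p under 0.05, red higher and blue lower. Unc5b and Robo4 stand on opposite sides of 0 with intervals that do not overlap, and most intracellular effectors lie near 0. Srgap1 lies furthest from 0, at 0.87, with an interval of 0.13 to 1.62.

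The remaining genes of the pathway were followed in 5 lists of 43 genes, of which 31 were tested. Of these, 4 rose and 1 fell, which is 16.1% against 16.8% of all genes tested, with a median log2 fold change of 0.04. Of the other netrin and Slit ligands, 1 of 5 was tested, Ntng2, a membrane-anchored netrin-G, at 0.78 ± 0.23 and 1.44 ± 0.31 CPM (log2 fold change 0.85 ± 0.39; edgeR adjusted p = 0.147). Ntn3, Ntn5 and Slit1 held between 1 and 12 counts per library, and Ntng1 held 0.

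Of the other receptors, 2 of 7 were tested. Robo3, a divergent Roundabout receptor, rose from 35.4 and 43.5 CPM in control to 45.8 and 48.9 CPM (log2 fold change 0.27 ± 0.08; edgeR adjusted p = 0.0253). The control libraries lay further apart than the treated ones, and without control replicate 1 the log2 fold change was 0.13 and not called (adjusted p = 0.283). It also lost its call with each treated library left out, in DESeq2, with no count filter and with thinned counts (adjusted p up to 0.334, down to 3.66e-06 over the alternatives). Robo3 ends 2021 bases from the end of Robo4, tail to tail on the opposite strand, and Robo1 and Robo2 face each other in the same way 844484 bases apart. The 2 neighbours on chromosome 9 had called changes in opposite directions. The counting options were not given, so whether reads were assigned by strand is not known. GENCODE M21 gives no shared exonic base between Robo3 and Robo4. Neo1, the netrin and RGM receptor neogenin, stood at 31.9 RPKM in control, below Robo4 at 43.7. In conditioned medium it stood at 34.0 RPKM, beside Robo4 at 34.4, and in replicate 1 it was above Robo4 (35.0 against 34.3 RPKM). With the shortest coding transcript of each gene, mean Neo1 stayed below Robo4 (43.5 against 67.1 RPKM in control, 46.3 against 52.8 RPKM in conditioned medium). Neo1 was not called (234 and 236 CPM against 258 and 243 CPM; log2 fold change 0.09, 95% interval -0.0037 to 0.18; edgeR adjusted p = 0.188). Dcc, the attractive netrin receptor of axons, held 0 counts in both controls and 2 and 4 in the treated libraries, and Unc5a, Unc5c, Unc5d and Dscam held 0 to 2 counts per library. Nearly all reads of the UNC5 receptors were thus those of Unc5b. Per length Neo1 was above Unc5b, which stood at 8.03 RPKM in control and 10.7 RPKM in conditioned medium.

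Of 11 co-ligands and cell-surface cofactors, 9 were tested and 2 rose. Sdc1, a heparan sulfate proteoglycan of the class that binds Slits, rose from 41.7 and 40.6 CPM to 54.3 and 54.2 CPM (0.40 ± 0.06; edgeR adjusted p = 1.37e-04) and was called in all 15 alternatives. Sdc3, another syndecan, was at 0.16 ± 0.05 (edgeR adjusted p = 0.0388) and lost its call in 6 of 15 alternatives, among them DESeq2, no count filter, and every omission of a library except control replicate 2 (adjusted p up to 0.447). Flrt2, a membrane ligand of UNC5 receptors, was at 163 ± 4.67 and 160 ± 9.15 CPM (log2 fold change -0.03, 95% interval -0.13 to 0.08; edgeR adjusted p = 0.753).

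Of 10 Robo effectors 9 were tested, and edgeR and limma-voom each called 0, with 3 at an unadjusted p under 0.05. DESeq2 called 0, with 0 such genes. Of the 13897 genes tested, 4105 had an unadjusted p under 0.05 in edgeR, 4112 in limma-voom and 2157 in DESeq2. Vasp, an actin regulator, had the smallest edgeR p of these effectors (0.13 ± 0.05, edgeR adjusted p = 0.0808). The largest log2 fold change of the list was that of Srgap1, at 1.09 ± 0.570 and 1.97 ± 0.343 CPM. It was 0.87 ± 0.36, with a 95% interval of 0.13 to 1.62, and was not called (edgeR adjusted p = 0.103). Pxn, encoding paxillin, a partner of ROBO4, was at 337 ± 19.7 and 333 ± 1.90 CPM (log2 fold change -0.02, 95% interval -0.12 to 0.08). Of 10 effectors of netrin receptors 1 rose, the kinase gene Src (0.21 ± 0.06; edgeR adjusted p = 0.0236), and 1 fell, Ablim1, which encodes an actin-binding LIM protein (-0.19 ± 0.05; edgeR adjusted p = 0.0222). Each was called in 11 of 15 alternatives and lost its call with any library but control replicate 2 left out and in DESeq2 (adjusted p up to 0.257 and 0.234). Dapk1, the death kinase that acts below UNC5B, was at 3.17 ± 0.0714 and 3.19 ± 0.0283 CPM, with a 95% interval of its log2 fold change of -0.45 to 0.48.

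The genes whose values over the 4 libraries lay closest to those of a member were found by the root mean square distance of log2 (CPM + 1), centred on each gene's mean, among 10630 genes of at least 5 CPM. Nearest to Unc5b were Mmp19, a matrix metalloproteinase, at a distance of 0.00977, Thbd, the anticoagulant receptor thrombomodulin, at 0.0126, and Prcp, a lysosomal carboxypeptidase, at 0.0133. Thbd stood at 291 and 273 CPM in control and 385 and 369 CPM in conditioned medium. Nearest to Slit2 were B3glct, a glycosyltransferase, at 0.00699, Get4 at 0.00756 and Tmco3 at 0.00758. With 4 libraries in 2 groups such a distance describes mainly the size of the group difference, and many genes lie close by.

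**Figure D4:**
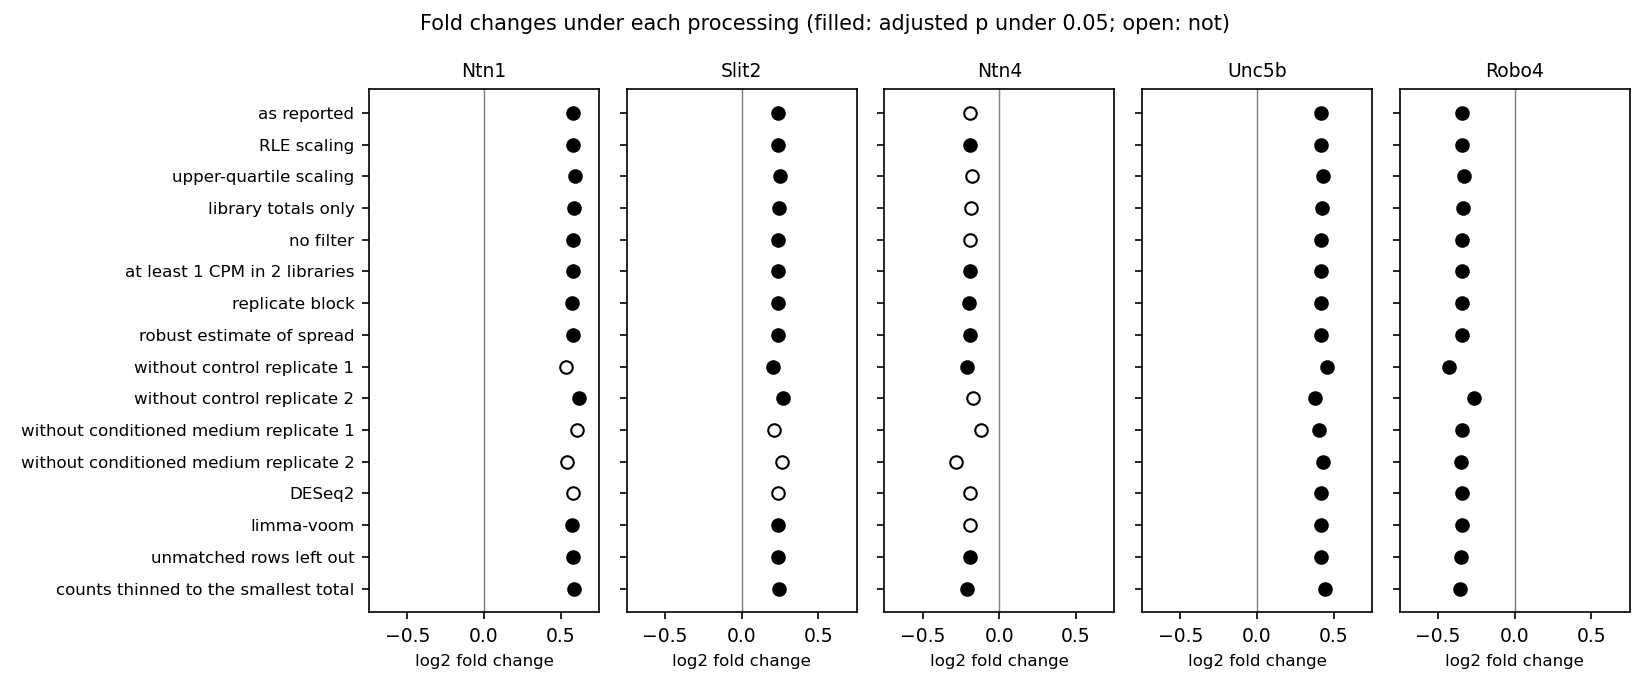
Log2 fold change (horizontal axis) of the 5 tested members under the reported processing and each of the 15 alternatives (rows); filled points had an adjusted p under 0.05. Unc5b and Robo4 are filled throughout, Ntn1 and Slit2 open in 4 and 3 alternatives, and Ntn4 filled in 7.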

How the data were processed

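Raw gene counts were deposited by the authors in 1 table, with Entrez identifiers and a column per library. Per the submitters' processing notes, STAR 2.5.2b, featureCounts, Subread 1.4.6-p1 and mm10 were used; counting options and gene annotation were not given in the sources used here. Per the labels, total RNA was made into TruSeq libraries. Identifiers were matched to RefSeq GRCm38.p6, which named 25275 of 27179 rows; transcript lengths came from GENCODE M21.

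The analysis used edgeR 4.0.16 (R 4.3.3) with filterByExpr (minimum count 10, total 15), TMM scaling and the two-sided quasi-likelihood test over 13897 genes with Benjamini-Hochberg adjustment and no replicate block, called at an adjusted p under 0.05. SEs were derived by dividing the size of the log2 fold change by the root of the F statistic. The fit has 2 residual degrees of freedom, with the spread moderated across genes. Alternatives were other scalings and filters, a replicate block, a robust spread, each library left out, DESeq2 1.42.0 and limma-voom (limma 3.58.1); 2 more, without unnamed rows and with thinned counts, were added after seeing the data. The procedure was tested on simulated data.

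The members and lists were chosen with earlier results of these data known. Named genes are all 8 members, and every called gene of the other lists or the one with the smallest p. Further named genes are the 3 nearest to the ligand and to the receptor with the smallest p, and defining markers. Neo1, Flrt2, Pxn, Srgap1, Dapk1, Eng, Egfl7, Flt4 and Vwf and genes at low counts were named after their values were seen.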

Additional observations from a re-analysis of the deposited data

How the results depend on the processing

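Unc5b and Robo4 kept their direction and call in all 15 alternatives, and no member reversed; leaving out each library in turn moved Unc5b between 0.38 and 0.45 and Robo4 between -0.43 and -0.26. DESeq2 called 918 genes in place of 2330, and 2157 of all genes had an unadjusted p under 0.05 in it. It called 0 of the member ligands (2 at an unadjusted p under 0.05), with Ntn1 at 0.58 and Slit2 at 0.24. It also called 1 of the other pathway genes in place of 5. Those came to 3 with no count filter and 3 with thinned counts. Leaving out each library gave 569 to 3107 genes, 0 to 2 member ligands, 1 to 6 other pathway genes, and log2 fold changes of 0.54 to 0.62 for Ntn1, 0.20 to 0.27 for Slit2 and -0.28 to -0.12 for Ntn4. The lowest counts were those without conditioned medium replicate 2 or replicate 1. There the spread comes from the controls alone and the lone library is assumed to vary like them.

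Ntn4 passed the threshold with RLE scaling (-0.19), at least 1 CPM in 2 libraries (-0.19), a robust spread (-0.19), unnamed rows left out (-0.19), thinned counts (-0.21) and without control replicate 1 (-0.21). With the replicate number as a block it was -0.20 (adjusted p = 0.0194) and 2671 genes were called; the block changed no other member's call. The deviations of same-numbered libraries correlated at -0.04 over genes, and nothing in the labels says that the numbers pair the samples. The cause of these changes was not tested. For Slit3, Robo1 and Robo2 differences were not detectable at this depth.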

Other observations

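Some genes of the pathway lists that are widely expressed in cultured cells were listed at or near 0. Gpc1, a glypican that binds Slits, held 0 counts in all 4 libraries, and Enah, an actin regulator related to Vasp, held 0 to 2 counts per library, while Vasp stood at 90.5 ± 2.22 CPM in control. Whether these genes are silent in the line or were not counted was not tested.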
